A study of Homo sapiens with 6 samples.

Results

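The genes described here are 40 genes of glycolysis and of the transcriptional response to hypoxia, followed across control, *GATA3* shRNA (shGATA3) and *TCF7* shRNA (shTCF1) transduced RPMI-8402 cells. They were chosen by name, and each was represented by the probe with the highest mean signal among the probes whose RefSeq accession maps to that symbol. Of the 40 genes, 39 had such a probe and 38 were tested, because in at least 1 group both arrays read that probe well above background. On all arrays of the series, probes named 19699 genes, of which 14491 were tested. *ALDOA* was not analysed here. *CA9*, a carbonic anhydrase at the cell surface, was well above background on 0 of the 6 arrays and was not tested.

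Glycolysis turns glucose into pyruvate in the cytosol. Glucose enters through facilitative transporters, is trapped and rearranged by the hexose phosphate enzymes, and is then split into trioses whose oxidation yields ATP. Pyruvate is either reduced to lactate by lactate dehydrogenase and exported by monocarboxylate transporters, or oxidized in mitochondria by pyruvate dehydrogenase, which the pyruvate dehydrogenase kinases switch off. The transcription factor HIF-1 raises many of these genes when oxygen is low. Prolyl hydroxylases of the EGLN family mark its alpha subunit for degradation while oxygen is present, and proliferating T cells and T-cell leukaemias are known for high glycolytic rates.

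RPMI-8402 is a human cell line from a T-cell acute lymphoblastic leukaemia. Cells received lentivirus for a control shRNA, for shGATA3 or for shTCF1, EGFP+ cells were sorted 48 h later, and the RNA of each sample was hybridised to 1 one-colour Agilent array. Each of the 3 groups had 2 arrays, and the study describes them as independent experiments. All groups were grown in the same medium, and oxygen was not varied as far as the labels say. The sorted cells were measured in bulk, so fewer cells of a type and less RNA per cell cannot be told apart.

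The labels were checked against the targeted genes. *TCF7*, which encodes TCF1, measured 13.96 and 13.91 (log2 normalized intensity) on the control arrays, 14.26 and 14.27 under the shGATA3 label, and 12.58 and 12.68 on the arrays labelled shTCF1, where it fell by 1.31 on the log2 scale (adjusted p = 0.0039). *GATA3* measured 9.54 and 9.56 on the control arrays, 9.46 and 9.55 under the shGATA3 label, and 9.76 and 9.90 under the shTCF1 label. The *GATA3* probe was therefore not lower on the arrays labelled shGATA3 beyond its spread (log2 difference -0.05, adjusted p = 0.80), and every direction given below for that group refers to its label. All 6 arrays were on 1 slide and read in 1 scan, and the file headers place both control arrays in slide row 2 and the other arrays in row 1, so slide row and transduction with a targeting hairpin cannot be told apart. The 75th percentile of the deposited intensities was 270 and 287 on the control arrays and 165 to 179 on the others, and 51.0% to 56.2% of probes were well above background. Of 14 T-lineage markers, 11 were well above background on all arrays, as were 3 of 6 B-cell, 4 of 8 myeloid and 1 of 6 NK-cell markers. So were 2 of 3 erythroid markers and 5 of 8 markers of fibroblasts or epithelial cells. *CD2*, a T-lineage marker, was lower than in the control under the shTCF1 label (log2 difference -2.19, limma adjusted p = 0.0020). It was also lower under the shGATA3 label (-0.47, adjusted p = 0.044). *CD3G* was higher under the shTCF1 label (0.63, adjusted p = 0.037). *CD1B* was well above background only on the arrays labelled shGATA3, and it entered the test only through that group. It was called higher there than in the control. It was also called lower under the shTCF1 label, but neither those arrays nor the control arrays read it well above background. That call therefore shows no drop in expression. No other T-lineage marker was called against the control. Of the myeloid markers only *S100A9* was called, higher under the shGATA3 label and lower under the shTCF1 label. The part of these markers in the results below was not tested.

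Array 2 read higher than array 1 for most of these genes in the control group and on the arrays labelled shTCF1. Control array 2 was higher than control array 1 for 30 of the 38 genes (78.9%), with a median gap of 0.18. The share was 45.9% of all tested probes, and 45.6% over the brightest tested probe of each named gene. Array 2 labelled shTCF1 was higher than array 1 for 31 of 38 genes (81.6%), with a median gap of 0.19. Here the share was 57.1% of all tested probes, and 67.2% over the brightest tested probe of each named gene (median gap 0.07). The control arrays differed in the size of their gaps. The gap passed 0.5 on the log2 scale for 10 of 38 genes (26.3%), against 5.61% of all tested probes. It was widest for *SLC16A3*, *BNIP3*, *EGLN3*, *PFKFB3*, *DDIT4*, *PDK1* and *EGLN1*, and of these only *EGLN3* was higher on control array 1. For the hypoxia response genes 10 of 11 were higher on control array 2, with a median gap of 0.32. Between the arrays labelled shGATA3 the median gap was -0.00 and 2 of 38 genes passed 0.5, against 8.02% of all tested probes, and between those labelled shTCF1 3 of 38 genes did, against 8.22%. What set the control arrays apart was not tested. A gene for which they lie far apart has a wide error in every comparison, the direct one between the hairpin groups included. This is because 1 fit over the 6 arrays gives each gene a single spread.

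**Figure D1:**
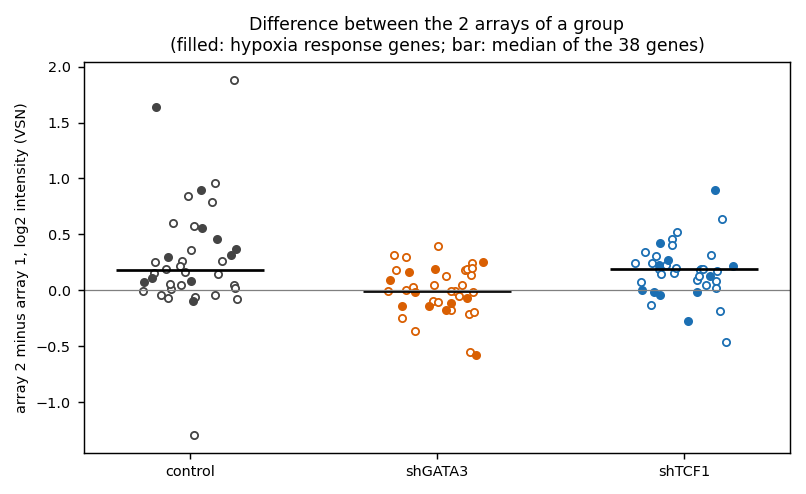
Difference between the 2 arrays of each group (array 2 minus array 1, log2 normalized intensity) for the 38 tested genes, 1 point per gene, with hypoxia response genes filled and the median of the 38 genes as a bar. Points of the control group reach further from 0 than those of the other groups, with 30 of 38 above 0, as are 31 of 38 of the shTCF1 group.

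The promoters of some of these genes are shown because HIF-1 binds the core letters ACGTG, or GCGTG, in promoters of hypoxia-induced genes. The windows are the 250 bases before the annotated start in RefSeq (GRCh38.p14), and 35 of the 40 genes were read from that table. ACGTG stood on either strand in 16 of 35 windows (45.7%), against 18.7% of the 27303 promoters of all genes. ACGTG or GCGTG stood in 24 of 35 (68.6%), against 43.1%. The palindrome CACGTG, which holds ACGTG on both strands, was in 5 of 35 (14.3%), against 6.49%. Of the 9 genes that passed the test in a comparison below, 7 were read from that table. ACGTG stood in 3 of these 7 windows (42.9%), those of *HK2*, *PDK3* and *EGLN1*, which follow in 5′ to 3′ orientation of the gene with ACGTG and its reverse complement CACGT in capitals. The *HK2* window is chr2:74833877-74834126 (plus strand), the *PDK3* window is chrX:24465036-24465285 (plus strand), and the *EGLN1* window is chr1:231422288-231422537 (minus strand).
HK2: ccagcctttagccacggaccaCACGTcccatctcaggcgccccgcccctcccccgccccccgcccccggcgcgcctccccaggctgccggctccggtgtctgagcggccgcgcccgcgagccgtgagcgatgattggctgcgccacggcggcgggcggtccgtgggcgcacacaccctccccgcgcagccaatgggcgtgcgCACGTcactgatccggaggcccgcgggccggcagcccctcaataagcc
PDK3: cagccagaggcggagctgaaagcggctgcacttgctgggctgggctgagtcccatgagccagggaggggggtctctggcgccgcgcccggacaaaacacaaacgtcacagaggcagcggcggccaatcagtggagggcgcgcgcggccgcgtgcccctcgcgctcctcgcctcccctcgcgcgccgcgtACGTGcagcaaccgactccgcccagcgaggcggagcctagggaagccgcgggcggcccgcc
EGLN1: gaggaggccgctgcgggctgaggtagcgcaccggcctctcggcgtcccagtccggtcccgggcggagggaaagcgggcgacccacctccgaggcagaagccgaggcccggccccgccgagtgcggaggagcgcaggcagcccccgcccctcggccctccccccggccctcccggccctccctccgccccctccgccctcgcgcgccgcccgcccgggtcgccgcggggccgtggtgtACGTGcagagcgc
The windows of *ADM* and *PFKL* hold GCGTG but no ACGTG, and those of *HK1* and *PDK1* hold neither. A match or its absence in 250 bases describes letters, not binding.

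On the arrays labelled shGATA3, 4 of the 38 genes passed the test against the control and all 4 were lower: the hexokinases *HK1* and *HK2*, the pyruvate dehydrogenase kinase *PDK1* and the peptide hormone gene *ADM*. These are 4 of 38 genes (10.5%), where 6.84% of all tested probes were called (2.88% higher and 3.96% lower). The median log2 difference of the 38 genes was -0.38, against -0.01 over all tested probes, and 30 of 38 were below 0. The groups did not overlap for 25 of 38 genes, 23 of them lower, while 60.2% of all tested probes did not overlap. Without control array 2, or without either array labelled shGATA3, 0 of 38 genes were called by limma, with 12, 15 and 16 genes at an unadjusted p under 0.05 against 20 with all arrays.

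On the arrays labelled shTCF1, 7 of the 38 genes passed the test against the control. The phosphofructokinase gene *PFKL* was higher, and the glucose transporter *SLC2A3*, *HK2*, the kinase *PDK3*, the oxygen sensor *EGLN1*, *VEGFA* and *ADM* were lower. Of all tested probes 16.9% were called (7.21% higher and 9.73% lower), so 7 of 38 (18.4%) is close to the background. The median difference of the 38 genes was -0.27, against -0.02 over all tested probes, and 27 of 38 were below 0. The groups did not overlap for 24 of 38 genes, against 66.9% of all tested probes. Without control array 2, or without either array labelled shTCF1, 3 genes were called, and the median was -0.08 without control array 2.

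Compared directly, the arrays labelled shGATA3 were higher than those labelled shTCF1 for *VEGFA* and *SLC2A3* and lower for *HK1*. These are 3 of 38 genes (7.89%), where 6.18% of all tested probes were called (3.58% higher and 2.60% lower). The median difference was -0.19 for the 38 genes and -0.00 for all tested probes, and 29 of 38 genes did not overlap between these groups, against 52.0% of all tested probes. Without any one of the 4 arrays compared, 0 or 1 genes were called. Both comparisons with the control rest on the same 2 control arrays, so a low or high control array enters both.

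**Figure D2:**
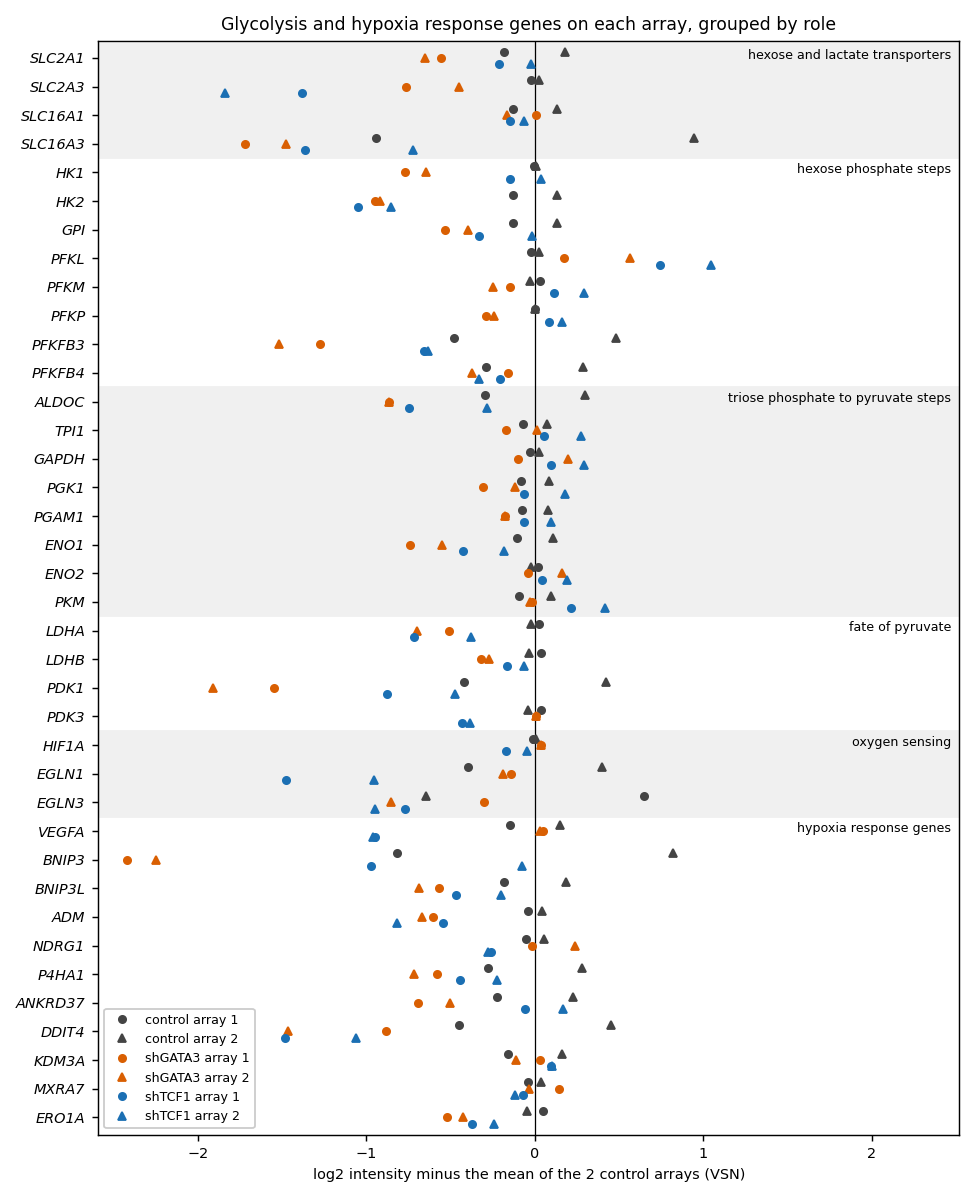
Log2 normalized intensity of each tested gene on each array, minus the mean of the 2 control arrays, grouped by role; circles are array 1 and triangles array 2 of a group. The control arrays lie far apart for *BNIP3*, *SLC16A3* and *EGLN3*, and most points of the arrays labelled shGATA3 lie left of 0.

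**Figure D3:**
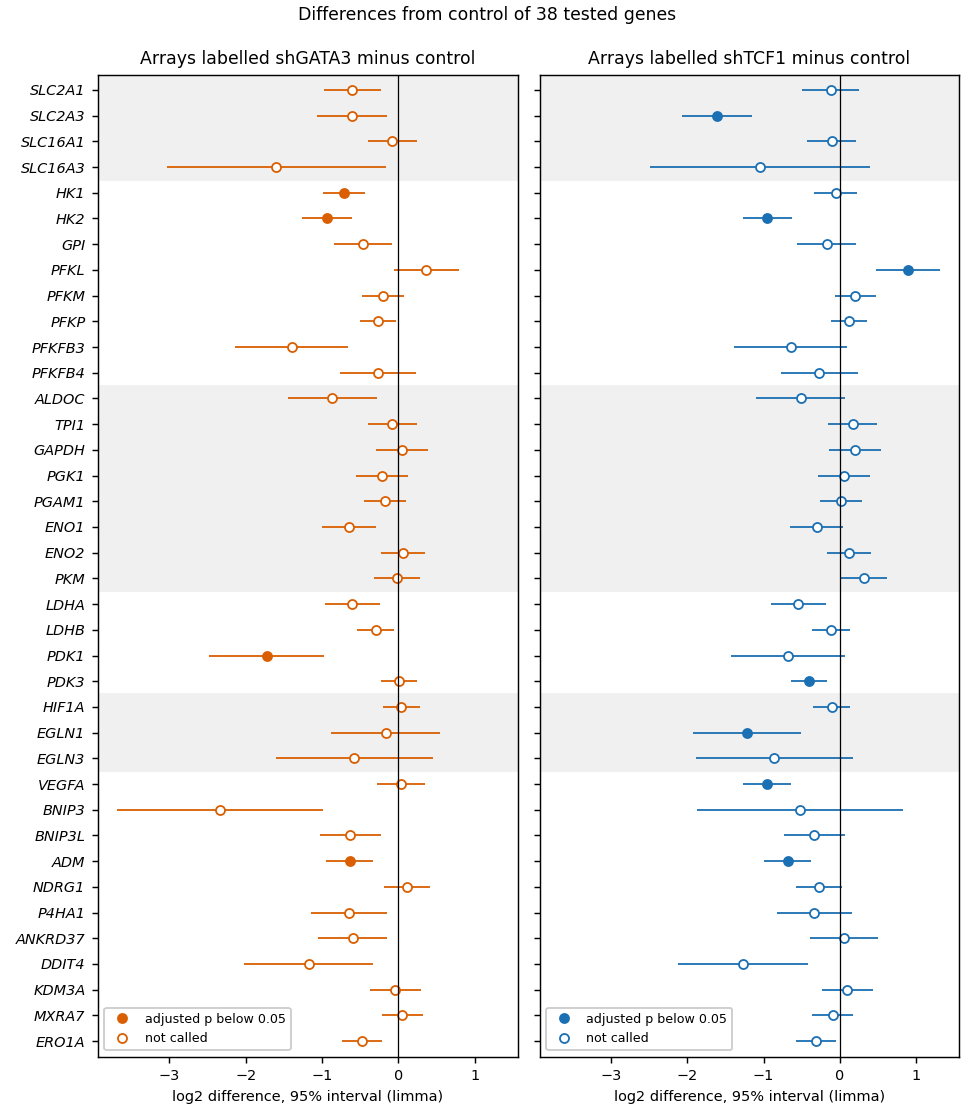
Log2 difference from the control with its 95% interval (limma) for the 38 tested genes, on the arrays labelled shGATA3 (left) and shTCF1 (right); filled points passed adjusted p below 0.05. The 4 filled points on the left are all below 0, and of the 7 on the right only *PFKL* is above 0.

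Among the transporters, *SLC2A3*, the high-affinity glucose transporter GLUT3, was lower on the arrays labelled shTCF1. It measured 4.99 and 5.04 on the control arrays, 4.24 and 4.56 under the shGATA3 label, and 3.63 and 3.17 under the shTCF1 label. The 3 groups did not overlap, but the probe was not well above background on either array labelled shTCF1, which leaves only a bound there. It entered the test only through the control group, where both arrays read it well above background. Its calls depend on that filter, and they are included in the counts of called genes above. Measured against the lowest signal well above background, *SLC2A3* on the arrays labelled shTCF1 was at least 1.73-fold lower than in the control. This bound holds only on the normalized scale used here, and with normexp background correction the log2 difference was -0.45. The limma call against the control (adjusted p = 0.0081) is of the measured values, not of the bound. The probe was also called lower than on the arrays labelled shGATA3 (adjusted p = 0.037), for which no fold is given because only 1 of those arrays read it well above background. This call held only without array 1 labelled shTCF1 (adjusted p up to 0.14).

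*SLC2A1*, the basal glucose transporter GLUT1, measured 9.47 and 9.83 on the control arrays, 9.097 and 9.002 on those labelled shGATA3, and 9.44 and 9.63 on those labelled shTCF1. The arrays labelled shGATA3 lay below the other groups, by a log2 difference of -0.60 ± 0.15 (SE) from the control that did not pass the test (adjusted p = 0.073). *SLC16A1*, a lactate and pyruvate transporter, stayed between 8.21 and 8.51 on all arrays, and its groups overlapped. *SLC16A3*, the lactate exporter MCT4, measured 4.82 and 6.71 on the control arrays, so the controls alone lay 1.88 apart. It was not well above background on either array labelled shGATA3, where it was at least 2.93-fold lower without passing the test (adjusted p = 0.16). Like *SLC2A3*, it entered the test only through the control group. The limit rests on control array 2: without it the limit was 1.53-fold, and without control array 1 it was 5.64-fold.

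In the hexose phosphate steps, *HK1* was lower on the arrays labelled shGATA3 and *HK2* was lower on both hairpin groups. The hexokinases phosphorylate glucose on entry. *HK1* (probe A_23_P217958) measured 10.62 and 10.63 on the control arrays, 9.85 and 9.98 on those labelled shGATA3, and 10.48 and 10.66 on those labelled shTCF1. The arrays labelled shGATA3 stood below all others, 1.64-fold lower than the control (log2 difference -0.71 ± 0.11 (SE), adjusted p = 0.025) and 1.57-fold lower than those labelled shTCF1 (-0.65 ± 0.11, adjusted p = 0.030). The difference from the control shrank to -0.11 with the values the authors deposited as normalized. The first call was lost without either control array or either array labelled shGATA3 (adjusted p up to 0.13) and the second without any one array (up to 0.11).

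*HK2* (probe A_32_P175739), the hexokinase induced by hypoxia, measured 9.81 and 10.08 on the control arrays, 8.999 and 9.026 on those labelled shGATA3, and 8.90 and 9.09 on those labelled shTCF1. Both hairpin groups lay below the control without overlap, and they overlapped each other. The difference from the control was -0.93 ± 0.13 (SE; 1.91-fold lower, adjusted p = 0.019) on the arrays labelled shGATA3 and -0.95 ± 0.13 (1.93-fold lower, adjusted p = 0.011) on those labelled shTCF1. The first call was lost without either control array or either array labelled shGATA3 (adjusted p up to 0.083), the second without control array 2 or array 1 labelled shTCF1 (up to 0.053).

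*PFKL*, the liver-type subunit of phosphofructokinase, was the only one of the 38 genes that passed the test as higher than in the control. It measured 11.26 and 11.31 on the control arrays, 11.45 and 11.85 on those labelled shGATA3, and 12.02 and 12.33 on those labelled shTCF1. The groups did not overlap, and the arrays labelled shTCF1 were 1.86-fold above the control (log2 difference 0.89 ± 0.17 (SE), adjusted p = 0.024). Leaving out a control array or an array labelled shTCF1 ended this call (adjusted p of 0.11 at most), and the difference was 0.47 in the deposited normalized values. The muscle and platelet subunits did not pass the test: *PFKM* ranged from 11.44 to 11.98 and *PFKP* from 12.94 to 13.39 over the 6 arrays, each lowest on an array labelled shGATA3 and highest on one labelled shTCF1.

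*PFKFB3*, which makes the activator of phosphofructokinase, measured 7.35 and 8.31 on the control arrays, 6.56 and 6.31 on those labelled shGATA3, and 7.176 and 7.195 on those labelled shTCF1. The arrays labelled shGATA3 lay below the other groups (log2 difference -1.40 ± 0.30 (SE) from the control, adjusted p = 0.051), and the control arrays lay 0.96 apart. *GPI*, the isomerase that follows hexokinase, and *PFKFB4* did not pass the test in any comparison. *GPI* ranged from 12.71 to 13.38 and was lowest on both arrays labelled shGATA3 (difference from the control -0.46 ± 0.16 (SE), adjusted p = 0.13), and *PFKFB4* ranged from 8.14 to 8.81 with overlapping groups.

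**Figure D4:**
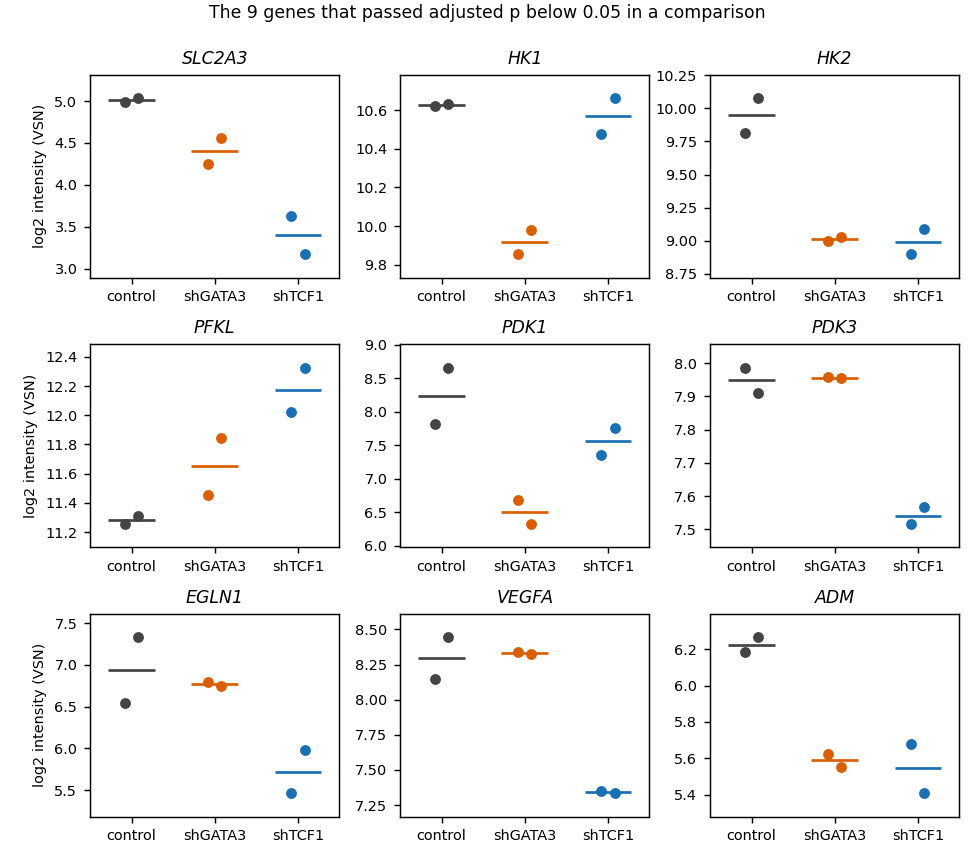
Log2 normalized intensity on each of the 6 arrays for the 9 genes that passed adjusted p below 0.05 in at least 1 comparison; points are arrays and bars are means of the 2 arrays, and each panel has its own axis. *HK2*, *ADM*, *PDK1* and *SLC2A3* lie below the control on both hairpin groups, and *VEGFA*, *PDK3* and *EGLN1* only on the arrays labelled shTCF1.

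Of the 8 tested genes for the steps from triose phosphate to pyruvate, 0 passed the test in limma in any of the 3 comparisons, with 2, 1 and 1 genes at an unadjusted p under 0.05. Their median difference from the control was -0.13 for the shGATA3 label and 0.09 for the shTCF1 label. *ENO1*, the ubiquitous enolase, measured 14.34 and 14.56 on the control arrays, 13.71 and 13.89 on those labelled shGATA3, and 14.02 and 14.26 on those labelled shTCF1. The groups did not overlap, and the difference on the arrays labelled shGATA3 was -0.65 ± 0.14 (SE, adjusted p = 0.054). The aldolase *ALDOC* measured 7.06 and 7.66 on the control arrays, 6.50 and 6.50 on those labelled shGATA3, and 6.62 and 7.08 on those labelled shTCF1 (difference of the arrays labelled shGATA3 from the control -0.87 ± 0.24 (SE), adjusted p = 0.086). *TPI1*, the triose phosphate isomerase, stayed between 14.17 and 14.62, *GAPDH*, the dehydrogenase often used as a reference gene, between 15.98 and 16.37, the phosphoglycerate kinase *PGK1* between 13.99 and 14.48, and the neuronal enolase *ENO2* between 10.61 and 10.84. Pyruvate kinase, *PKM*, was highest on both arrays labelled shTCF1, at 12.88 and 13.08 against 12.57 and 12.77 on the control arrays, without passing the test (0.32 ± 0.12 (SE), adjusted p = 0.13).

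The phosphoglycerate mutase *PGAM1* had 2 tested probes that disagreed. The brighter probe measured 13.38 and 13.54 on the control arrays, 13.29 and 13.29 on those labelled shGATA3, and 13.40 and 13.56 on those labelled shTCF1, and did not pass the test in any comparison. The other probe, A_33_P3268334, measured 11.42 and 11.16, then 10.47 and 10.39, then 10.48 and 10.82 in the same order. It was lower in both hairpin groups than in the control, by -0.86 ± 0.16 (SE, adjusted p = 0.035) and -0.64 ± 0.16 (adjusted p = 0.044). *PGAM1* has near-identical copies in the genome, as do *GAPDH*, *PGK1*, *TPI1*, *ENO1*, *PKM* and *LDHA*, and which transcripts each probe binds was not tested.

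Among the genes for the fate of pyruvate, *PDK1* was lower under the shGATA3 label and *PDK3* under the shTCF1 label. Both kinases inhibit pyruvate dehydrogenase. *PDK1* (probe A_24_P37441) measured 7.81 and 8.66 on the control arrays, 6.69 and 6.33 on those labelled shGATA3, and 7.35 and 7.76 on those labelled shTCF1. The 3 groups did not overlap, and the arrays labelled shGATA3 were 3.31-fold below the control (log2 difference -1.73 ± 0.31 (SE), adjusted p = 0.032). The difference of the arrays labelled shTCF1 was -0.68 ± 0.31 (adjusted p = 0.17). The *PDK1* call held only without control array 1 and was lost without any other array (adjusted p up to 0.14), and quantile normalization also ended it.

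*PDK3* (probe A_23_P250478) measured 7.99 and 7.91 on the control arrays, 7.96 and 7.96 on those labelled shGATA3, and 7.52 and 7.57 on those labelled shTCF1. The arrays labelled shTCF1 lay below all others, 1.33-fold under the control (log2 difference -0.41 ± 0.10 (SE), adjusted p = 0.040). This small difference lost its call without any one array (adjusted p up to 0.21) and was called under 1 of 4 other ways to scale the arrays.

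*LDHA*, the lactate dehydrogenase subunit that favours lactate, measured 13.12 and 13.08 on the control arrays, 12.59 and 12.40 on those labelled shGATA3, and 12.38 and 12.72 on those labelled shTCF1. Both hairpin groups lay below the control without overlap and missed the threshold, at -0.60 ± 0.15 (SE, adjusted p = 0.066) and -0.55 ± 0.15 (adjusted p = 0.054). A brighter *LDHA* probe had an outlier spot on array 1 labelled shGATA3 and was left out. On its other 5 arrays the differences were -0.28 (adjusted p = 0.39) and -0.42 (adjusted p = 0.13). *LDHB*, the subunit that favours pyruvate, ranged from 15.31 to 15.67 over the 6 arrays, lowest on both arrays labelled shGATA3 (difference from the control -0.30 ± 0.10 (SE), adjusted p = 0.13).

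In oxygen sensing, *EGLN1*, the main HIF prolyl hydroxylase, was lower on the arrays labelled shTCF1. It measured 6.54 and 7.34 on the control arrays, 6.80 and 6.75 on those labelled shGATA3, and 5.46 and 5.98 on those labelled shTCF1. The arrays labelled shTCF1 lay below all others, 2.32-fold under the control (log2 difference -1.22 ± 0.29 (SE), adjusted p = 0.041), a call that held only without control array 1 (adjusted p up to 0.15). *EGLN3*, a prolyl hydroxylase that is itself induced by HIF, measured 7.40 and 6.11 on the control arrays, 6.45 and 5.90 on those labelled shGATA3, and 5.98 and 5.80 on those labelled shTCF1. Its control arrays lay 1.29 apart, and it did not pass the test in any comparison.

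*HIF1A*, the oxygen-regulated subunit of HIF-1, had 2 tested probes that disagreed on the arrays labelled shGATA3. The brighter probe measured 9.37 and 9.39 on the control arrays, 9.42 and 9.42 on those labelled shGATA3, and 9.21 and 9.34 on those labelled shTCF1, and did not pass the test. The other probe, A_33_P3231277, measured 6.73 and 6.92, then 6.29 and 6.41, then 6.15 and 6.22 in the same order. It was lower on the arrays labelled shTCF1 (-0.64 ± 0.12 (SE), adjusted p = 0.021), and its difference on those labelled shGATA3 was -0.47 ± 0.12 (adjusted p = 0.068). HIF-1 is controlled mainly through the stability of its protein, which these arrays do not measure.

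Of the 11 tested hypoxia response genes, *VEGFA* was lower on the arrays labelled shTCF1 and *ADM* in both hairpin groups, and none passed the test as higher against the control. *VEGFA*, the main growth factor of blood vessels (probe A_23_P70398), measured 8.14 and 8.45 on the control arrays, 8.34 and 8.32 on those labelled shGATA3, and 7.35 and 7.33 on those labelled shTCF1. Only the arrays labelled shTCF1 stood apart. They were 1.94-fold below the control (log2 difference -0.95 ± 0.13 (SE), adjusted p = 0.011), and the arrays labelled shGATA3 exceeded them by 0.99 ± 0.13 (1.99-fold, adjusted p = 0.012). A second *VEGFA* probe, A_24_P12401, was also lower on the arrays labelled shTCF1 (-0.69 ± 0.12, adjusted p = 0.021). The call against the control held without any one array (adjusted p up to 0.048), and the direct call was lost when 1 of the 4 arrays compared was left out (up to 0.068).

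*ADM*, which encodes the vasodilator peptide adrenomedullin (probe A_23_P127948), measured 6.19 and 6.27 on the control arrays, 5.62 and 5.55 on those labelled shGATA3, and 5.68 and 5.41 on those labelled shTCF1. Both hairpin groups lay below the control without overlap, by -0.64 ± 0.13 (SE; 1.56-fold, adjusted p = 0.042) and -0.68 ± 0.13 (1.61-fold, adjusted p = 0.022), and they overlapped each other. The first call was lost when 1 of the 4 arrays compared was left out (adjusted p of 0.16 at most) and held under 1 of 4 other scalings, and the second was lost without either control array or array 2 labelled shTCF1 (up to 0.10). With normexp background correction the differences were -0.28 and -0.33.

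The mitophagy receptors *BNIP3* and *BNIP3L* were described after their values were seen. *BNIP3* measured 8.43 and 10.07 on the control arrays, 6.828 and 6.995 on those labelled shGATA3, and 8.27 and 9.17 on those labelled shTCF1. Both arrays labelled shGATA3 lay below all others, at a log2 difference of -2.34 from the control, but the control arrays differed by 1.64, so the SE was 0.55 and the test was not passed (adjusted p = 0.063). *BNIP3L* measured 12.07 and 12.44, then 11.69 and 11.57, then 11.79 and 12.06 in the same order, which did not pass the test either (-0.63 ± 0.16 on the arrays labelled shGATA3, adjusted p = 0.079). Its dimmer probe, A_33_P3396951, was lower in both hairpin groups, by -0.99 ± 0.11 (adjusted p = 0.011) and -0.63 ± 0.11 (adjusted p = 0.020).

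*DDIT4*, an inhibitor of mTOR signalling, measured 10.54 and 11.44 on the control arrays, 10.10 and 9.52 on those labelled shGATA3, and 9.51 and 9.93 on those labelled shTCF1. Both hairpin groups lay below the control without overlap, at -1.18 ± 0.35 (SE, adjusted p = 0.10) and -1.27 ± 0.35 (adjusted p = 0.056). *P4HA1*, a collagen prolyl hydroxylase subunit, *ANKRD37*, an ankyrin repeat protein, and *ERO1A*, an oxidase for disulfide bonds, were lowest on the arrays labelled shGATA3. Their differences from the control of -0.65, -0.60 and -0.48 did not pass the test (adjusted p = 0.11, 0.11 and 0.057). The histone demethylase *KDM3A* ranged from 7.52 to 7.84 with overlap between each hairpin group and the control. The stress-response gene *NDRG1* ranged from 8.55 to 9.06 and was lowest on both arrays labelled shTCF1 without passing the test.

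*MXRA7* had 3 tested probes that disagreed in direction and did not pass the test. The brightest measured 8.78 and 8.86 on the control arrays, 8.96 and 8.78 on those labelled shGATA3, and 8.75 and 8.70 on those labelled shTCF1. Probe A_24_P324314 measured 4.48 and 4.50, then 4.84 and 4.83, then 4.62 and 4.94, and probe A_24_P810697 measured 4.96 and 4.49, then 5.02 and 4.20, then 5.15 and 4.72, in the same order. On probe A_24_P324314 the groups labelled shGATA3 and control did not overlap (log2 difference 0.35 ± 0.13 (SE), unadjusted p = 0.039, adjusted p = 0.16).

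Further genes of the same pathways were counted from lists. Of 26 tested genes of glycolysis and its side branches, 0 were called by limma on the arrays labelled shGATA3 (4 at an unadjusted p under 0.05) and 2 were lower on those labelled shTCF1. *PFKFB2*, which sets the level of the phosphofructokinase activator, measured 10.59 and 10.44 on the control arrays, 11.20 and 10.78 on those labelled shGATA3, and 9.27 and 9.35 on those labelled shTCF1. The arrays labelled shTCF1 lay below all others, by -1.20 ± 0.16 (SE; 2.30-fold, adjusted p = 0.011) from the control and by 1.68 ± 0.16 (3.20-fold, adjusted p = 0.0049) from the arrays labelled shGATA3. *PGM2*, a phosphoglucomutase, was lower by -0.69 ± 0.13 (adjusted p = 0.023).

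Of 15 genes of pyruvate entry and the pyruvate dehydrogenase complex, 1 was called on the arrays labelled shGATA3, the acetyltransferase subunit *DLAT* (-0.55 ± 0.11 (SE), adjusted p = 0.042), and 5 on those labelled shTCF1, 2 higher and 3 lower. The monocarboxylate transporter *SLC16A7* measured 5.58 and 5.77 on the control arrays, 5.22 and 5.55 on those labelled shGATA3, and 4.47 and 4.21 on those labelled shTCF1, where it was not well above background. There, on the normalized scale used here, it was at least 2.45-fold below the control and at least 2.00-fold below the arrays labelled shGATA3. The limma calls (adjusted p = 0.0088 and 0.022) are of the measured values, not of these bounds. With normexp background correction *SLC16A7* was at -0.40 against the control and the arrays labelled shGATA3 exceeded those labelled shTCF1 by 0.33. *BSG*, the chaperone of the lactate transporters, was higher by 0.78 ± 0.11 (adjusted p = 0.011) and the dehydrogenase subunit *DLD* lower by -0.47 ± 0.10 (adjusted p = 0.030) on the arrays labelled shTCF1.

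Of 16 HIF subunits and regulators, 0 were called by limma on the arrays labelled shGATA3 (2 at an unadjusted p under 0.05). On those labelled shTCF1 the subunit gene *HIF3A* was higher (0.76 ± 0.19 (SE), adjusted p = 0.047) and the ubiquitin ligase subunit *CUL2* lower (-0.65 ± 0.10, adjusted p = 0.014). Of 31 other hypoxia response genes, 1 was called on the arrays labelled shGATA3, the glycogen branching enzyme *GBE1* (-0.86 ± 0.17, adjusted p = 0.043), and 4 on those labelled shTCF1. These included the repressor *BHLHE40* (-0.78 ± 0.12, adjusted p = 0.015) and the cyclin *CCNG2* (-0.52 ± 0.10, adjusted p = 0.022), which were lower, and the growth factor *TGFA*, which was higher (0.50 ± 0.10, adjusted p = 0.026). *CCNG2* was also higher on the arrays labelled shGATA3 than on those labelled shTCF1 (0.51 ± 0.10, adjusted p = 0.038). Both *CCNG2* calls rest on its brightest probe. With the mean of its tested probes the differences were -0.28 from the control (limma adjusted p = 0.22) and 0.24 in the direct comparison (adjusted p = 0.37). The shares called in these lists lay between 0 and 6.67% for the shGATA3 label and between 7.69% and 33.3% for the shTCF1 label, beside 6.84% and 16.9% of all tested probes. Leaving out 1 array ended most of these calls, with *SLC16A7* against the control and *PFKFB2* in the direct comparison called without any one array.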

How the data were processed

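RNA of the 6 samples (3 groups of 2) was measured on 1-colour Agilent arrays. Per the file headers, the scanner software (Feature Extraction 10.7.1.1) wrote the deposited intensity values on the assembly hg19, with background subtracted and no scaling between arrays; the submitters' processing notes name version 9.1. The scanner files also hold other marks for spots above background, saturated (0 on every array) or outlying. The authors also deposited log2 values, described as normalized by variance stabilization (VSN), whose scale and centring are not given; after centring, the column of control 1 followed control array 2 (r = 0.58) more than array 1 (0.35), that of shGATA3 1 followed shGATA3 array 2 (0.61) more than array 1 (0.27), that of shGATA3 2 followed either at 0.30 or less, and that of control 2 correlated with each array at 0.08 or less, so they served only as an alternative. No columns of values per sample (0) were left unused.

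Control and outlier spots were left out. Of the 57176 probes other than controls, 71 were removed because outlier spots left them without a value on at least 1 array. Intensities were VSN-normalized by an own implementation in R 4.3.3 (trimming quantile 0.9, 7 iterations, 5 strata), which amounted to log2 of the signal plus an offset for each array. The 31134 probes that both arrays of a group, or of more, read well above background were tested in limma 3.58.1 in 1 fit over 6 arrays with group as the only term (3 residual degrees of freedom), two-sided, with Benjamini-Hochberg adjustment over all of them and a call at adjusted p below 0.05, following the VSN and limma named in the study's methods. An exact permutation test of 2 arrays against 2 cannot go below a two-sided p of 0.333, so calls rest on the spread pooled over probes, and the number of arrays limits the precision. The ± values are SEs of the fit. On simulated data for the comparison of shGATA3 with control, 59% of log2 changes of 1 and 92% of changes of 2 were recovered over 31134 probes. The simulation changed 200 probes, all well above background on every array. Recovery was not tested for dim probes or with as many changed probes as were called here.

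The genes and lists were chosen with earlier results of these data known. Values on every array were given for genes called in a comparison and for genes whose tested probes disagreed in direction; other pathway genes were named where called, up to 3 per list and comparison. Further genes were given array by array after their values were seen. The values of a B-cell marker are not reported here. A probe well above background on 0 of the 2 arrays of a group has only a bound there, set by the lowest signal well above background. Such a bound holds for the VSN values only, and an adjusted p given with it is that of the measured difference. Over all tested probes, replicate numbers did not pair the samples (correlation of deviations -0.04 to 0.05). Pairing was not tested for the 38 genes alone. Of these, array 2 was higher for 30 in the control group, 18 under the shGATA3 label and 31 under the shTCF1 label. Alternatives were other scalings, background correction, filters, variance model, samples in the fit, a replicate block, the mean of a gene's probes, leaving out each array (a lone array is then assumed to vary like the other groups), and, chosen after seeing the data, outlier spots as missing values.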

Additional observations from a re-analysis of the deposited data

How the results depend on the processing

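The counts of genes called (4 for shGATA3 against control, 7 for shTCF1 against control, 3 directly) were 3, 5 and 2 with 75th percentile or median scaling, 5, 7 and 3 with quantile normalization and 3, 5 and 2 with only the arrays compared. Normexp gave 14, 10 and 11, an intensity trend 16, 10 and 11, and only probes well above background on all arrays 10, 8 and 3. Without the filter on dim probes the counts were 0, 3 and 1 by limma, with 19, 11 and 14 at an unadjusted p under 0.05, over more probes tested. The deposited values gave 0, 0 and 0, with 9, 10 and 5 at an unadjusted p under 0.05; the cause was not tested. Leaving out 1 array gave 0 to 4, 3 to 6 and 0 to 2. The replicate block, a paired fit although the numbers did not pair the samples over all tested probes, gave 5, 6 and 2. Treating outlier spots as missing values, chosen after seeing the data, gave 4, 7 and 3, as many as the reported fit, and the mean of a gene's tested probes 5, 7 and 3. No block for slide or scan could be run, since there was 1 of each.

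Over all tested probes the calls on the arrays labelled shGATA3 were 42.1% higher with VSN, 53.6% with 75th percentile scaling, 53.0% with quantile normalization and 54.7% with median scaling. On those labelled shTCF1 they were 42.6%, 54.8%, 53.3% and 56.6%. The number of probes called was 2130 (shGATA3 against control), 5274 and 1925; these became 4280, 7726 and 3281 with normexp, 3912, 7343 and 3273 with an intensity trend, 560, 2272 and 901 without the filter and 0 with the deposited values. With the replicate block the first was 1328, and with only the arrays compared the last was 1214. None of the 14 called differences of the 38 genes turned its sign in any alternative (0 of 14), and 85 of 2046 alternative values of all their differences did. Called sizes of these genes moved by over 1.5 times in 2 settings. With normexp *SLC2A3* was at -0.45, *EGLN1* at -0.72, *VEGFA* at -0.62 and *PDK3* at -0.21 against control on the arrays labelled shTCF1, and *SLC2A3* at 0.30 in the direct comparison. With the deposited values *PDK3* was at -0.69 there and *ADM* at -0.23 on the arrays labelled shGATA3. Of other genes, *SLC16A7* was at -0.40 with normexp, and *PFKFB2* at -0.21 and the first *TCF7* probe at -0.20 with the deposited values, on the arrays labelled shTCF1. Each deposited column of the control and shGATA3 groups correlated best with another array than the one it is named for. On the deposited values *BNIP3L* (0.84), *P4HA1* (1.39), *ERO1A* (0.47) and *GBE1* (0.045) turned positive on the arrays labelled shGATA3, as did *ERO1A* (0.58), *CUL2* (0.24), *CCNG2* (0.545) and the second *TCF7* probe (1.24) on those labelled shTCF1, where *HIF3A* turned to -0.45; whether the column mismatch sets these values was not tested. *GATA3* on the arrays labelled shGATA3 was at 0.000468 with 75th percentile scaling and 0.0039 with median scaling.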
